A study of Mus musculus with 24 samples.

Results

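Mitosis genes were followed in mouse embryos after 1 h of exposure to an activated cyclophosphamide. The genes were taken by symbol: every probe with exactly 1 annotated gene symbol that began with Kif (kinesins), Smc or Ncap (condensin, cohesin and related proteins), Cenp (centromere proteins), Bub (spindle checkpoint), Aurk or Plk (mitotic kinases), Anapc (anaphase-promoting complex), Cdca (cell division cycle associated), Ccna or Ccnb (mitotic cyclins), and the single genes Top2a, Mki67, Racgap1, Cdk1, Cdc20, Mad2l1, Tpx2 and Ect2. Smco and Smcr symbols were left out. This gave 82 genes of the 6970 named in the data, or 115 of 15360 probes, of which 9684 carried 1 symbol. The first table held 56 of them for 48 genes and the second 59 for 47 genes, and 13 genes were in both. No probe with a single symbol measured Ect2. The rule also took in genes that do not act in the division of somatic cells, mainly kinesins of intracellular transport, which are kept apart below. It further took in Ccnb2-ps, a pseudogene of Ccnb2 whose probe may share sequence with that gene.

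All embryos were mouse embryos kept in culture at 37 °C. Treated embryos were in medium with 40 µM 4-hydroperoxycyclophosphamide (4CP) for 1 h, a form of the DNA-alkylating drug cyclophosphamide that needs no activation by the liver, and control embryos received no drug. The sources used here give no strain, stage or number of embryos behind an RNA sample. Total RNA of treated and control embryos was hybridised to the same 2-channel arrays, 24 in all, on 2 platforms whose values form the first and the second table of 7680 probes each. Each table held 3 slide pairs. In a pair, 1 slide carried the treated RNA in channel 1 and its partner carried it in channel 2, and each slide gave 2 arrays, which were averaged. The labels do not state whether pairs came from separate cultures, so SDs and p-values measure only how slide pairs differ, which may be technical. They also do not state whether the pairs of both tables share RNA.

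The values are log ratios of unstated base, numerator channel and state of turning. The base is 2 or e, so an effect of 0.1 is a 1.07-fold difference in base 2 or a 1.11-fold difference in base e. The treatment effect of a pair was taken as the difference of its 2 slides divided by 2, relative to the median probe of each array. Read with channel 1 as numerator, a negative effect is less RNA after treatment; with channel 2 as numerator it is more. If the swapped slides had been turned by the submitters, the treatment effect would instead be the sum divided by 2, here called the value without the turn. In whole embryos, fewer dividing cells and less RNA per cell cannot be told apart. Below, 3 values in a row are those of pairs 1, 2 and 3, a value with ± is their mean and SD (n = 3), and all are in log ratio units. A gene with several probes is given by their average.

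Mitosis is driven by cyclin-dependent kinase 1 with its A- and B-type cyclins, and by the Aurora and Polo-like kinases. Condensins compact the chromosomes, cohesin holds sister chromatids together, and centromere proteins build the kinetochore to which spindle microtubules attach. The spindle checkpoint holds back the anaphase-promoting complex and its activator Cdc20 until every kinetochore is attached, and kinesins of the spindle and the midzone then separate the chromosomes and the daughter cells. Transcripts of many of these genes accumulate in G2 and mitosis, so their level in a tissue depends on how many of its cells are in those phases.

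No mitosis gene passed the test in either table. With limma and Benjamini-Hochberg adjustment, 0 of 56 member probes of the first table had an adjusted p under 0.05, against 0% of all 7680 probes there, and 0 of 59 of the second, again against 0%. The lowest adjusted p of a member probe was 0.997 in the first table, and the second had 0.822. At an unadjusted p under 0.05, 2 of 56 member probes stood in the first table, 1 of them negative, against 180 of all probes (3.57% against 2.34%). The second table had 8 of 59, all of them negative, against 401 of all probes (13.6% against 5.22%). Effects were small: the median size of a member probe's effect was 0.033 (first table) and 0.036 (second table), beside 0.035 and 0.023 over all probes. The median SD between pairs was 0.071 and 0.044 for member probes, and so larger than the median effect in both tables.

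Most members had negative means. Of the 48 genes of the first table, 34 had a negative and 14 a positive mean effect, where 4129 of all 7680 probes had a negative one. The median was -0.017 beside -0.0046 for all probes. The second table had 33 negative and 14 positive of 47, where 3966 of all 7680 probes were negative. Its median was -0.021 beside -0.0015. Negative values in all 3 pairs were found for 10 of 56 member probes (17.9%) in the first table, where 11.2% of all probes had them. In the second table, 19 of 59 member probes (32.2%) were negative in all 3 pairs, against 14.7% of all probes. Positive values in all 3 pairs were found for 4 member probes (7.14%) in the first table, against 11.4% of all probes, and for 7 (11.9%) in the second, against 9.84%. By gene, the first table had 8 negative and 3 positive in all pairs, and the second had 15 and 5. The member medians of single pairs were 0.0021, -0.016 and -0.047 in the first table, beside 0.026, 0.0026 and -0.014 for all probes, and -0.023, -0.019 and -0.0084 in the second, beside -0.0044, -0.00099 and -0.0045. In the first table, pair 1 thus had a member median near 0 and below that of all probes, and the lowest member median was that of pair 3. Left-out pairs moved the first-table median, to -0.030 without pair 1 and -0.00018 without pair 3. The median of all probes also differed between pairs, as given above, so these shifts need not be of the members alone. The sign of the median depended on the use of both slides: channel 1 slides alone gave -0.18 and -0.18 in the 2 tables, and channel 2 slides alone, turned, 0.17 and 0.075. With values as deposited, without centring, 67.9% and 8.48% of member probes were negative in all pairs, where 58.7% and 3.46% of all probes were.

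**Figure D1:**
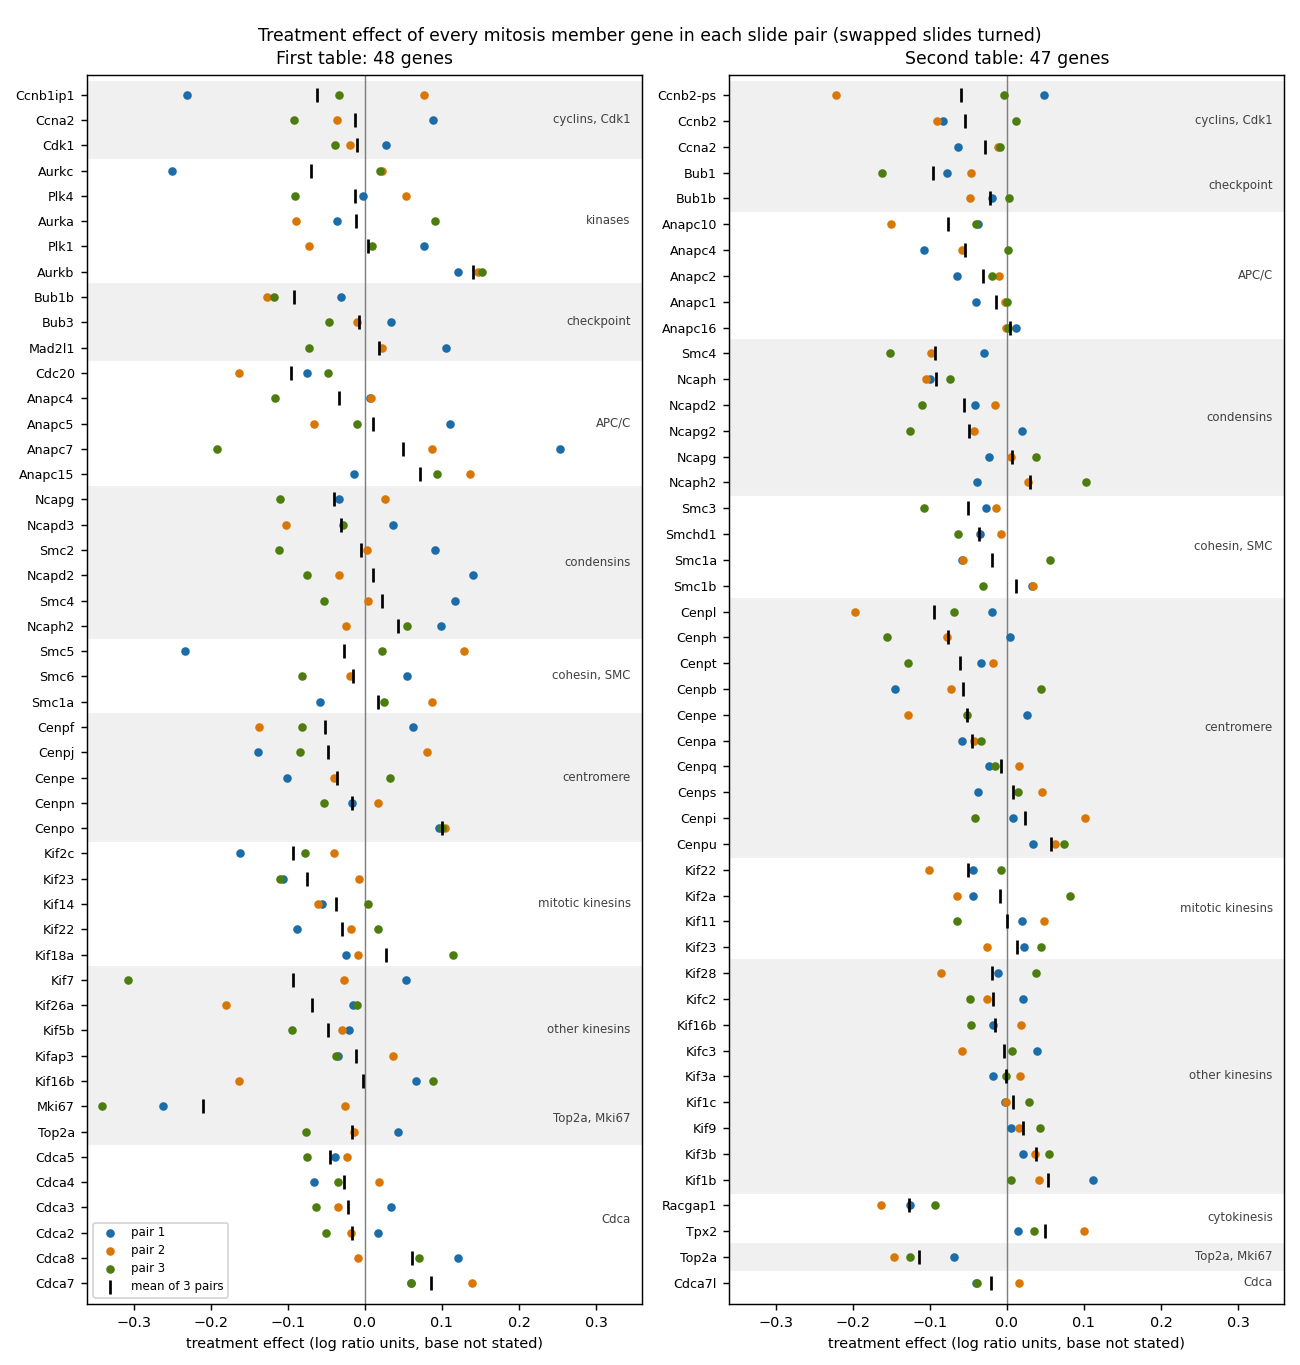
Treatment effect (x axis, log ratio units of unstated base) of each of the 48 mitosis genes of the first table and 47 of the second, in order of function. Coloured points are the 3 slide pairs and the black bar is their mean. The pairs of most genes lie on both sides of 0, for 37 genes of the first table and 27 of the second. Below 0 in every pair lie 8 genes of the first table and 15 of the second, where 11.2% and 14.7% of all probes do.

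**Figure D2:**
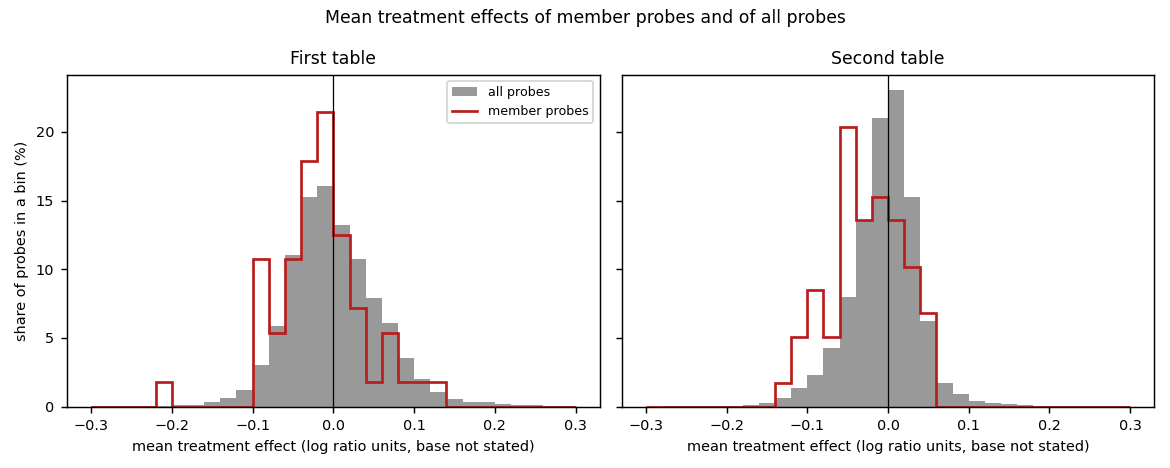
Share of probes (y axis, %) by mean treatment effect (x axis, log ratio units) for all 7680 probes (grey) and for member probes (red line) of each table. In the second table the members are spread more widely to the negative side, with a median of -0.023 for member probes against -0.0015 for all probes.

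The most negative members of the second table were Racgap1, Top2a and Bub1, and each was negative in all pairs. Racgap1 is a part of centralspindlin, the complex of the spindle midzone that sets the site of cytokinesis. Its centred slide values were -0.69, -0.29 and -1.31 with treated RNA in channel 1 and -0.44, 0.037 and -1.13 in channel 2, giving effects of -0.13, -0.16 and -0.093 (-0.13 ± 0.035). By the definition of a negative effect, the slide with treated RNA in channel 1 was the lower in each pair. The unadjusted limma p was 0.00265 and the adjusted p 0.822. Top2a, the topoisomerase that untangles sister DNA, had slide values of -0.76, -0.12 and -1.33 in channel 1 and -0.62, 0.17 and -1.08 in channel 2, and effects of -0.069, -0.15 and -0.13 (-0.11 ± 0.040, adjusted limma p 0.822). Bub1, the checkpoint kinase that marks centromeric chromatin, had slide values of -0.48, -0.058 and -1.29 in channel 1 and -0.33, 0.035 and -0.96 in channel 2, and effects of -0.078, -0.047 and -0.16 (-0.096 ± 0.060). Both Bub1 probes were negative in all pairs. For all 3 genes the slides of 1 pair differed less from each other than the pairs did, since both slides of pair 3 were far lower than those of pair 2.

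The highest members of the second table with positive values in all pairs were Cenpu, Kif1b and Tpx2. Cenpu, a protein of the inner kinetochore that helps recruit Plk1, had slide values of 0.33, 0.25 and 0.23 in channel 1 and 0.26, 0.13 and 0.081 in channel 2, and effects of 0.033, 0.062 and 0.075 (0.057 ± 0.021). Kif1b, a kinesin that carries mitochondria and synaptic vesicle precursors, had slide values of 0.11, 0.21 and -0.19 in channel 1 and -0.11, 0.13 and -0.20 in channel 2, and effects of 0.11, 0.042 and 0.0056 (0.053 ± 0.054). Tpx2, the spindle assembly factor that activates Aurora A, had slide values of 0.15, 0.45 and 0.26 in channel 1 and 0.13, 0.25 and 0.19 in channel 2, and effects of 0.015, 0.099 and 0.035 (0.050 ± 0.044). Its second arrays alone gave a mean of -0.0099, so the sign of Tpx2 rests on the first arrays, 1 of which, in pair 2, stood far above the others at 0.65. All 3 positive means were smaller in size than those of Racgap1, Top2a and Bub1.

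In the first table the lowest members with negative values in all pairs were Mki67, Cdc20 and Kif2c. Mki67, the antigen of the Ki-67 proliferation marker, had slide values of -0.12, 0.50 and -0.0045 with treated RNA in channel 1 and 0.41, 0.55 and 0.68 in channel 2. Its effects were -0.26, -0.026 and -0.34 (-0.21 ± 0.16, unadjusted limma p 0.0115, adjusted p 0.997), near 0 in pair 2 and larger in the others. Without pair 2, its mean was -0.30 with an adjusted limma p of 0.0481. With values as deposited, without centring, its mean was -0.33 and the adjusted limma p 0.0073. In that setting the median of all first-table probes was itself -0.13, and 33 of them passed. First arrays alone gave Mki67 a mean of -0.32 and second arrays alone one of -0.096. Cdc20, the activator of the anaphase-promoting complex, had slide values of -0.28, -0.046 and -0.83 in channel 1 and -0.14, 0.28 and -0.74 in channel 2, and effects of -0.075, -0.16 and -0.047 (-0.095 ± 0.061). Kif2c, the kinetochore kinesin that takes microtubules apart at their ends, had slide values of 0.032, 0.57 and -0.25 in channel 1 and 0.36, 0.65 and -0.092 in channel 2, and effects of -0.16, -0.040 and -0.077 (-0.093 ± 0.063). These 3 genes were chosen for a negative effect in each pair, and its size varied between pairs several-fold.

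At the other end of the first table, Aurkb, Cenpo and Cdca7 were positive in all pairs. Aurkb encodes the kinase of the chromosomal passenger complex, which corrects faulty kinetochore attachments. Its slide values were 0.23, 0.50 and -0.77 in channel 1 and -0.016, 0.20 and -1.08 in channel 2, and its effects 0.12, 0.15 and 0.15 (0.14 ± 0.017, unadjusted limma p 0.0159, adjusted p 0.997). Cenpo, of the inner kinetochore, had slide values of 0.34, -0.048 and 0.38 in channel 1 and 0.14, -0.26 and 0.18 in channel 2, and effects of 0.096, 0.10 and 0.10 (0.10 ± 0.0041), the smallest SD among these 12 genes. Cdca7, a chromatin protein whose gene is a Myc target, had slide values of -0.13, 0.17 and -0.85 in channel 1 and -0.25, -0.11 and -0.97 in channel 2, and effects of 0.060, 0.14 and 0.059 (0.086 ± 0.046). By the definition of a positive effect, the channel 1 slide of each of the 3 genes was the higher in every pair. With values as deposited, without centring, the means of Cenpo and Cdca7 were -0.024 and -0.038.

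**Figure D3:**
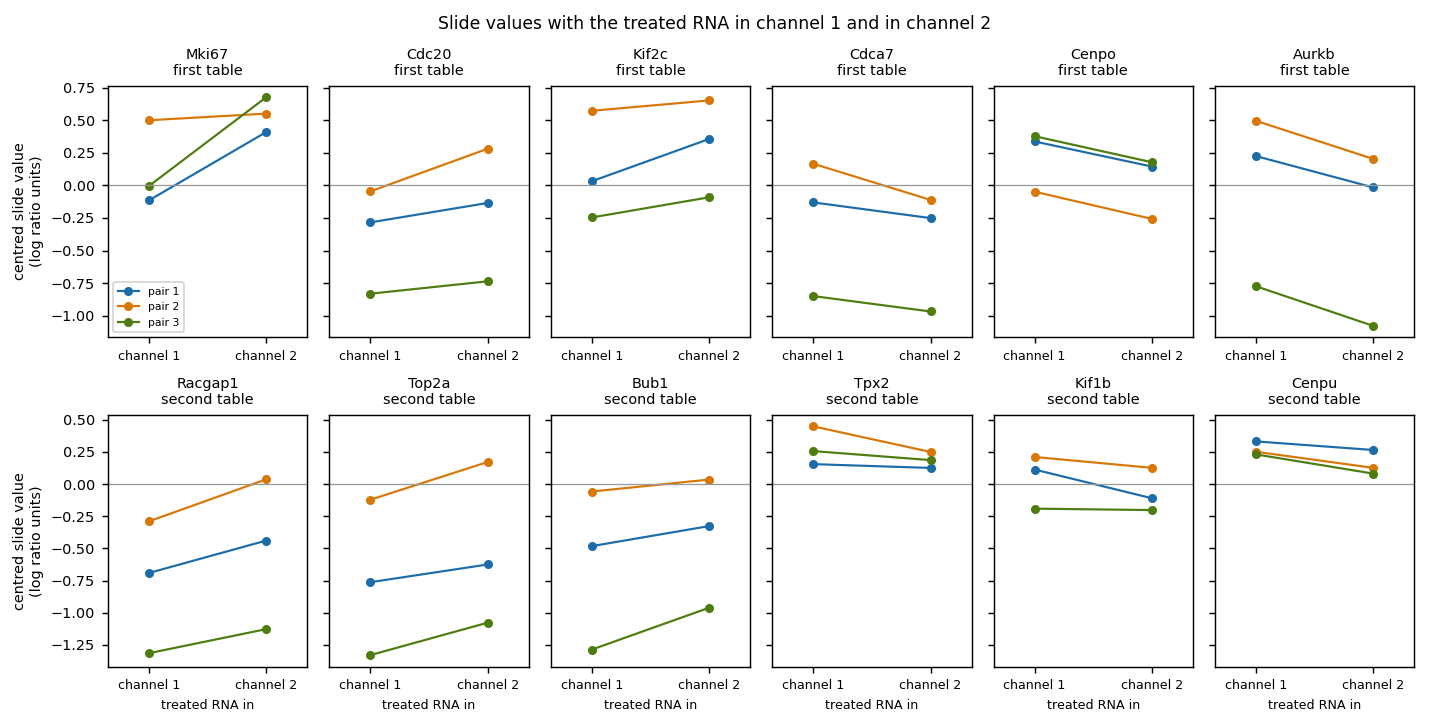
Centred slide values (y axis, log ratio units; the 2 arrays of a slide averaged) with the treated RNA in channel 1 and in channel 2, for 12 genes with effects of 1 sign in all pairs. Lines join the slides of a pair; a line that runs up from channel 1 to channel 2 has a negative treatment effect, whose size is the change along the line divided by 2, and the middle of the line is the value without the turn. The lines of Racgap1, Top2a and Bub1 (second table) run up in all pairs and those of Aurkb, Cenpo and Cdca7 (first table) run down.

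Promoters of these genes are shown because many mitosis genes share a cell cycle element, the cell cycle genes homology region (CHR), often beside CCAAT boxes bound by NF-Y. RefSeq promoter sequences (GRCm38.p6, 250 bases before to 50 after a transcript start) were found for 72 of the 82 genes, 80 promoters in all. They were searched on both strands for TTTGAA (CHR core), CCAAT (NF-Y) and TTTCGCGC or TTTGGCGC (E2F), and matches of different motifs overlapped in 1 member promoter. TTTGAA was in 33 of 80 member promoters (41.2%), beside 17.9% of all 32851 promoters. CCAAT was in 53.8% beside 37.4%, both motifs together in 31.2% beside 6.95%, and the E2F letters in 5% beside 0.813%. None of the 11 promoters of transport and other kinesins held TTTGAA, and without them it was in 47.8% of the members' promoters. Among the 14 promoters of second-table genes that were negative in all pairs it was in 7 (50%). Printed below from 250 bases before to 30 after the start, in the direction of transcription and with matches in capitals (TTCAAA and ATTGG are matches on the other strand), are 4 genes negative in all pairs and 2 positive in all pairs. Top2a lies at chr11:99024160-99024439 (- strand), Racgap1 at chr15:99651627-99651906 (- strand), Mki67 at chr7:135716350-135716629 (- strand), Cdc20 at chr4:118437314-118437593 (- strand), Cenpo at chr12:4233936-4234215 (- strand) and Cdca7 at chr2:72475969-72476248 (+ strand).
Top2a: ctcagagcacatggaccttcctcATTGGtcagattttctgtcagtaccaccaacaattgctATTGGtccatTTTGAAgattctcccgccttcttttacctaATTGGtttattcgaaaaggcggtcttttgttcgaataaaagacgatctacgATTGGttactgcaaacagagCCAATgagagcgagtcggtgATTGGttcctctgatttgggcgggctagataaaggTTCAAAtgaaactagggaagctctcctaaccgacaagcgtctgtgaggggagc
Racgap1: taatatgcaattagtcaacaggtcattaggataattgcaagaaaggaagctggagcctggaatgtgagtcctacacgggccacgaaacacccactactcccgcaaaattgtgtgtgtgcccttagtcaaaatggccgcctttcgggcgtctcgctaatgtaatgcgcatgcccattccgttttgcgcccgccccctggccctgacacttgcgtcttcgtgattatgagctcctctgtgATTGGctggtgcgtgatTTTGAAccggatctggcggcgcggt
Mki67: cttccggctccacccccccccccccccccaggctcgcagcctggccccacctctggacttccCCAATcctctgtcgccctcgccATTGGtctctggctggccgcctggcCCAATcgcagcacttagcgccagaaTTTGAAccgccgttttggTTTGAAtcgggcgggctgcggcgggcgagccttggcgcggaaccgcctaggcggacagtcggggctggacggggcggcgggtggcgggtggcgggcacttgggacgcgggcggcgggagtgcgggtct
Cdc20: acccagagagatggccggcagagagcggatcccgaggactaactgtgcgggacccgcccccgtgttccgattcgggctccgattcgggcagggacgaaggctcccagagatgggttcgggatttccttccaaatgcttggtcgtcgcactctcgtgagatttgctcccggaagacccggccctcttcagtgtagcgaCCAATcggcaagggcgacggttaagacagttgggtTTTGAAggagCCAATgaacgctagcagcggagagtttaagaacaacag
Cenpo: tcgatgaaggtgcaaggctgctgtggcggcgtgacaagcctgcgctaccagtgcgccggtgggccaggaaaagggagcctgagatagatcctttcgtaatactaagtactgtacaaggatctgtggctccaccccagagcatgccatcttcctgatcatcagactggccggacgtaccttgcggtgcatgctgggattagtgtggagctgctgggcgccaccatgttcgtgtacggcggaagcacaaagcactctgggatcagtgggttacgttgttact
Cdca7: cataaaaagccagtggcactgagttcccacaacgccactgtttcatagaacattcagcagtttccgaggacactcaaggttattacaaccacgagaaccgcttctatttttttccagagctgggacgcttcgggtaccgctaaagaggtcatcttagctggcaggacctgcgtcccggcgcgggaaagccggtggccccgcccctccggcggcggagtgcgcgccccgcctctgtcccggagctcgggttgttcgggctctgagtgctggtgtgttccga

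The Top2a promoter held 2 TTTGAA matches and 6 CCAAT matches, Mki67 2 and 3, Cdc20 1 and 2, and Racgap1 1 of each. In Cdc20 the TTTGAA match began 18 bases before the start, between CCAAT matches that began 53 and 8 bases before it. In Top2a the nearest TTTGAA, on the other strand, began 23 bases before the start, and in Racgap1 the match lay 5 bases after it. Of the other genes with printed slide values, Bub1 held 2 CCAAT and no TTTGAA matches, Kif2c 1 TTTGAA and no CCAAT, and the positive genes Cenpu and Kif1b held only CCAAT, 1 and 2. No match in Cenpo or Cdca7 says only that these letters are not in those windows. These matches describe the sequences and were not related to the effects by any test. No rule was set for which promoters were printed, and Bub1, Kif2c, Cenpu and Kif1b differed in motifs from the printed genes of their sign. Aurkb, Ccna2, Cdca2, Kif28, Kif5b, Kifc2, Kifc3, Smc4, Tpx2 and Ccnb2-ps were not matched.

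The cyclins and Cdk1 had negative means throughout, each smaller than its SD. Cdk1, the kinase that drives entry into mitosis, was measured in the first table at 0.028, -0.020 and -0.038 (-0.010 ± 0.034), with both signs among its pairs. Ccna2, the A-type cyclin of S phase and mitotic entry, was at 0.088, -0.036 and -0.092 in the first table (-0.013 ± 0.092) and at -0.064, -0.012 and -0.0084 in the second (-0.028 ± 0.031). Its 2 second-table probes disagreed: 1 was positive in all pairs, at 0.013, 0.036 and 0.057, and the other negative in all, at -0.14, -0.060 and -0.074. The average of Ccna2 therefore joins probes of opposite sign. Ccnb2, a B-type cyclin, had a mean of -0.054 ± 0.057 and the pseudogene Ccnb2-ps one of -0.059 ± 0.14. Ccnb1ip1, a ubiquitin ligase known from meiotic recombination, had one of -0.062 ± 0.16.

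The mitotic kinases did not share a direction, and all 5 were measured in the first table only. Besides Aurkb, the means were -0.012 ± 0.093 for Aurka, which matures the spindle poles, and -0.070 ± 0.16 for Aurkc, the family member of germ cells. They were 0.0044 ± 0.074 for Plk1, which acts at several steps of mitosis, and -0.013 ± 0.072 for Plk4, which starts centriole duplication. None of these 4 kept 1 sign in all pairs. Cdca8 encodes borealin, a partner of Aurkb in the passenger complex, and its mean was 0.060 ± 0.066 with 1 of 3 pairs negative.

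The spindle checkpoint genes had mostly negative means. Bub1b, the BubR1 component of the complex that inhibits Cdc20, was negative in all pairs of the first table at -0.031, -0.13 and -0.12 (-0.092 ± 0.054), and in the second it was at -0.019, -0.049 and 0.0031 (-0.021 ± 0.026). The second-table mean was smaller than its SD. Mad2l1, which encodes the Mad2 protein of the same inhibitor, was at 0.11, 0.022 and -0.073 in the first table (0.018 ± 0.089), and its sign differed between pairs. Bub3, which brings Bub1 and BubR1 to the kinetochore, had a mean of -0.0077 ± 0.041. Of the 5 checkpoint measurements, Bub1 in the second table and Bub1b in the first were of 1 sign in all pairs.

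The anaphase-promoting complex is the ubiquitin ligase that starts anaphase. Its median was 0.011 over 5 genes of the first table, Cdc20 among them, and -0.031 over 5 of the second. Of these genes only Anapc4 was measured in both tables, so the medians are of mostly different genes. Anapc10, a substrate-binding subunit, was negative in all pairs of the second table at -0.038, -0.15 and -0.040 (-0.076 ± 0.064). Anapc2, the cullin of the catalytic core, was also negative in all, at -0.064, -0.011 and -0.019 (-0.031 ± 0.029). Anapc4, a scaffold subunit, was at 0.0066, 0.0084 and -0.12 in the first table (-0.034 ± 0.072) and at -0.11, -0.059 and 0.0016 in the second (-0.055 ± 0.055), where it had 4 probes. All 4 Anapc4 probe means were negative, and the lowest was at -0.15, -0.085 and -0.12 with an unadjusted limma p of 0.00395 and an adjusted p of 0.822. Other means were -0.014 ± 0.023 for Anapc1 and 0.0038 ± 0.0068 for Anapc16 in the second table. In the first they were 0.011 ± 0.090 for Anapc5, 0.050 ± 0.22 for Anapc7 and 0.072 ± 0.078 for Anapc15. Anapc7 had the widest spread of all members, from -0.19 in pair 3 to 0.25 in pair 1.

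Condensin means had both signs in each table, with 3 of 6 genes negative (first table) and 4 of 6 (second table), and 4 genes were in both. Ncaph, the kleisin of condensin I, was negative in all pairs of the second table at -0.10, -0.10 and -0.073 (-0.093 ± 0.017, adjusted limma p 0.939). Smc4, an ATPase subunit of both condensins, was at -0.030, -0.098 and -0.15 in the second table (-0.093 ± 0.061), but at 0.12, 0.0038 and -0.054 in the first (0.022 ± 0.086). Ncapd2, of condensin I, was at -0.041, -0.015 and -0.11 in the second (-0.056 ± 0.049) and at 0.14, -0.033 and -0.075 in the first (0.011 ± 0.11). Both genes were thus negative in all pairs of 1 table and of both signs in the other. Ncapg was at -0.034, 0.026 and -0.11 in the first table (-0.039 ± 0.068) and at -0.023, 0.0049 and 0.037 in the second (0.0065 ± 0.030). Ncaph2, the kleisin of condensin II, was at 0.099, -0.025 and 0.055 in the first (0.043 ± 0.063) and at -0.039, 0.027 and 0.10 in the second (0.030 ± 0.071), again of both signs. The remaining means were -0.0056 ± 0.10 for Smc2 and -0.031 ± 0.070 for Ncapd3 in the first table, and -0.050 ± 0.073 for Ncapg2 in the second. The condensin median was 0.0025 in the first table, where it turned to -0.0055 after removal of a dye trend, and -0.053 in the second.

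Cohesin and the other SMC genes had small values. Smc3, which forms the cohesin ring with Smc1a, was negative in all pairs of the second table at -0.027, -0.014 and -0.11 (-0.050 ± 0.051). Smchd1, a silencing factor of the inactive X chromosome and not a mitosis protein, was at -0.035, -0.0079 and -0.064 (-0.036 ± 0.028). Smc1a was at -0.059, 0.087 and 0.024 in the first table (0.018 ± 0.073) and at -0.058, -0.057 and 0.056 in the second (-0.020 ± 0.066), of both signs in each. The meiotic Smc1b had a mean of 0.012 ± 0.037. Smc5 and Smc6, which form a complex of DNA repair, had means of -0.028 ± 0.19 and -0.015 ± 0.068.

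Centromere and kinetochore genes had negative means for 4 of 5 genes in the first table and 7 of 10 in the second. Of all 7680 probes of each table, 4129 and 3966 had negative means. Cenpa, the histone H3 variant that marks the centromere, was negative in all pairs at -0.058, -0.043 and -0.034 (-0.045 ± 0.012). This holds only for the average of its 2 probes. Each probe alone had 1 pair just above 0, at 0.0054 and 0.00053. Cenpl was at -0.019, -0.20 and -0.068 (-0.095 ± 0.092) and Cenpt at -0.034, -0.019 and -0.13 (-0.060 ± 0.060); both belong to the constitutive inner kinetochore. These 3 genes and the positive Cenpu were the ones of 1 sign in all pairs of the second table. Cenpe, the kinesin motor of the kinetochore, was at -0.10, -0.041 and 0.033 in the first table (-0.036 ± 0.067) and at 0.026, -0.13 and -0.051 in the second (-0.051 ± 0.077). Second-table means without 1 sign were -0.057 ± 0.096 for Cenpb, which binds a motif of centromeric repeats, and -0.076 ± 0.080 for Cenph. They were 0.023 ± 0.072 for Cenpi, -0.0074 ± 0.020 for Cenpq and 0.0074 ± 0.041 for Cenps. Among first-table genes, Cenpf, a large kinetochore protein of G2 and mitosis, had a mean of -0.052 ± 0.10 and Cenpn one of -0.017 ± 0.035. Cenpj, which despite its symbol encodes a centriole protein, had one of -0.048 ± 0.11.

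Mitotic kinesins were of mixed sign. Kif23, the motor partner of Racgap1 in centralspindlin, was negative in all pairs of the first table at -0.11, -0.0081 and -0.11 (-0.075 ± 0.058). These values average 2 probes, of which 1 was positive in pair 2, at 0.068. In the second table Kif23 was at 0.022, -0.026 and 0.045 (0.014 ± 0.036), so that its mean there had the opposite sign to that of Racgap1 in the same arrays. Kif22, a chromokinesin that pushes chromosome arms from the poles, was negative in all pairs of the second table at -0.044, -0.10 and -0.0079 (-0.051 ± 0.047) and at -0.088, -0.019 and 0.017 in the first (-0.030 ± 0.053). Kif11, the motor that separates the spindle poles, had a mean of 0.00043 ± 0.059 and Kif2a, which takes microtubules apart, one of -0.0090 ± 0.080. In the first table the means were -0.037 ± 0.036 for Kif14, which acts in cytokinesis, and 0.027 ± 0.076 for Kif18a, which limits chromosome movement. Kif2c and Kif23 in the first table and Kif22 in the second were thus the members of this group with 1 sign in all pairs.

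Transport and other kinesins, which have no common role in division, had values on both sides of 0 in the second table. There, 4 of 9 had positive means, 3 were positive in all pairs and 0 negative in all, and their median was -0.00055, whose sign turned with other scalings. Besides Kif1b, these were Kif3b, of the ciliary kinesin-2 motor, at 0.021, 0.036 and 0.054 (0.037 ± 0.017) and Kif9, known from cilia and flagella, at 0.0047, 0.015 and 0.043 (0.021 ± 0.020), whose 2 probes had means of opposite sign. The other 38 members of the second table had a median of -0.040, with 15 negative and 2 positive in all pairs. Of all second-table probes, 14.7% were negative and 9.84% positive in all pairs. With only 9 transport kinesins, a count of 0 negative in all pairs cannot be told apart from such a share. No test of the difference between transport kinesins and the other members was made. All 5 transport kinesins of the first table had negative means, where 4129 of all 7680 probes did. Kif5b, of conventional kinesin, was negative in all pairs at -0.020, -0.029 and -0.094 (-0.048 ± 0.040), and Kif26a at -0.016, -0.18 and -0.0096 (-0.069 ± 0.097). The Kif5b values average 3 probes, of which 1 was positive in pair 1, at 0.091. Kif7, of the hedgehog pathway in cilia, had a mean of -0.093 ± 0.19, and Kifap3, the accessory subunit of kinesin-2, one of -0.012 ± 0.042. Kif16b, an endosome motor, was at 0.067, -0.16 and 0.089 in the first table (-0.0027 ± 0.14) and at -0.019, 0.019 and -0.046 in the second (-0.015 ± 0.033). Second-table means of the others were 0.0080 ± 0.017 for Kif1c, -0.020 ± 0.062 for Kif28 and -0.00055 ± 0.018 for Kif3a. They were -0.018 ± 0.035 for Kifc2 and -0.0040 ± 0.049 for Kifc3, motors that walk to the minus end.

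Among the Cdca genes of the first table, Cdca5, which encodes the cohesin protector sororin, was negative in all pairs at -0.038, -0.023 and -0.075 (-0.045 ± 0.026). Means of both signs among pairs were -0.017 ± 0.034 for Cdca2, which brings phosphatase to anaphase chromatin, and -0.022 ± 0.050 for Cdca3, a trigger of Wee1 breakdown. The mean of Cdca4 was -0.027 ± 0.043, and that of Cdca7l in the second table was -0.021 ± 0.032. With Cdca7 and Cdca8, the group held means of both signs.

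Of the 13 genes measured on both platforms, none was of 1 sign in all 6 pairs. Top2a, negative in all pairs of the second table, was in the first at 0.042, -0.015 and -0.076 (-0.016 ± 0.059). Probes of the 2 platforms can target different stretches of a transcript, and whether the tables share RNA is not stated, so the values stand side by side and were not tested against each other. SDs were larger in the first table for 11 of the 13 genes. Within a table, probes of 1 gene also differed: means of both signs occurred in 2 of 7 genes with several probes in the first table and in 5 of 10 in the second.

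**Figure D4:**
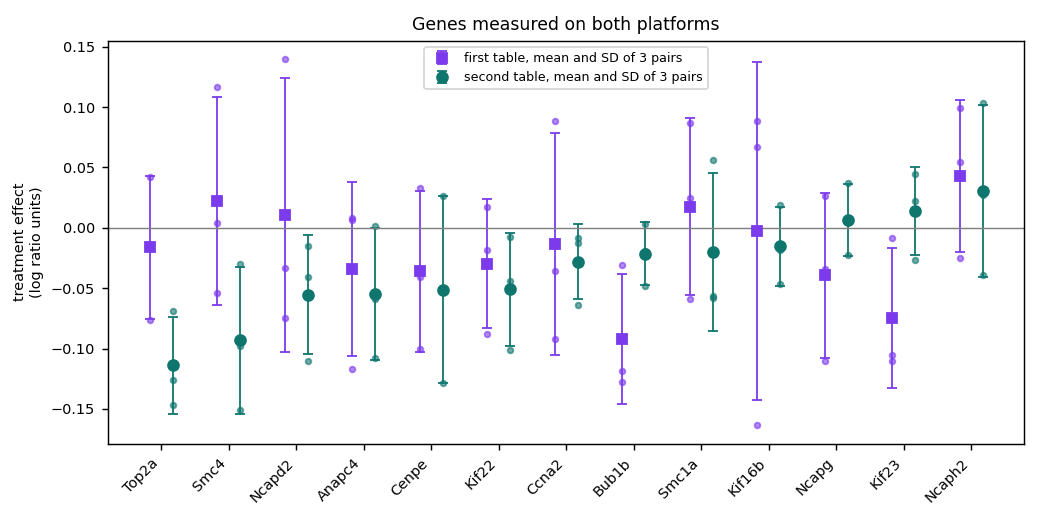
Treatment effects (y axis, log ratio units) of the 13 genes measured in both tables; large symbols with bars are the mean and SD of 3 pairs, small points the pairs. Most bars reach or cross 0; those of Top2a, Smc4, Ncapd2 and Kif22 in the second table and of Bub1b and Kif23 in the first stay below it.

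Without the turn, values were far larger for members and for all probes, and most member means were negative. Over all probes, the SD in a pair was 0.24 to 0.68 without the turn and 0.058 to 0.12 with it. Negative means were found for 34 of 48 and 32 of 47 member genes, and for 3669 and 4335 of all 7680 probes. The median over member genes was -0.15 (first table) and -0.10 (second table), beside 0.016 and -0.030 for all probes. It varied by pair, at -0.078, 0.010 and -0.49 (first table) and -0.063, 0.0056 and -0.21 (second table), so that in both tables pair 3 was the lowest and pair 2 near 0. In limma with Benjamini-Hochberg adjustment, 2 of 56 member probes passed in the first table (3.57%), where 2.85% of all probes did, and 0 of 59 in the second, where 0% did and 9 member probes and 1254 of all had an unadjusted p under 0.05. The 2 probes were those of Anapc7, at -0.89, -0.78 and -2.31 (adjusted limma p 0.00181), and of Ccna2, at -0.60, -0.31 and -1.51 (adjusted limma p 0.0473). Both were lower than the median probe in all pairs. In all, 15 member probes of the first table (26.8%) were negative in all pairs without the turn, against 18.1% of all probes, and 14 of the second (23.7%), against 17.9%. If the swapped slides were deposited unturned, a constant dye effect of a probe would be part of these values and cancel in the turned ones; if they were deposited turned, the reverse holds.

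In some pairs the turned effects varied with these larger values. Over member probes, which share arrays, Pearson's r between the effect and the value without the turn was -0.51, 0.080 and 0.23 in pairs 1 to 3 of the first table (56 probes), where all probes had -0.46, 0.37 and 0.15. In the second table it was 0.59, 0.20 and 0.35 (59 probes), where all probes had 0.10, 0.12 and 0.14. In pair 1 of the second table, the 29 member probes with the lower values without the turn had a median effect of -0.057 and the other 30 one of 0.013. All 11 transport kinesin probes were among the latter, and the median over these genes in that pair was 0.11 without the turn. In pairs 2 and 3 of that table, 4 and 11 of these 11 probes lay above the member median without the turn. In the first table, 7, 4 and 6 of 7 did in pairs 1, 2 and 3. The part of these values in the turned effects was not tested beyond removing a lowess trend of the effect on them, which gave 15 second-table genes negative in all pairs and a member median of -0.018, and 12 first-table genes and a median of -0.026. Over member probes the 2 arrays of a slide had r between 0.74 and 0.92, except in pair 2 of the second table, where it was 0.46 and 0.50.

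**Figure D5:**
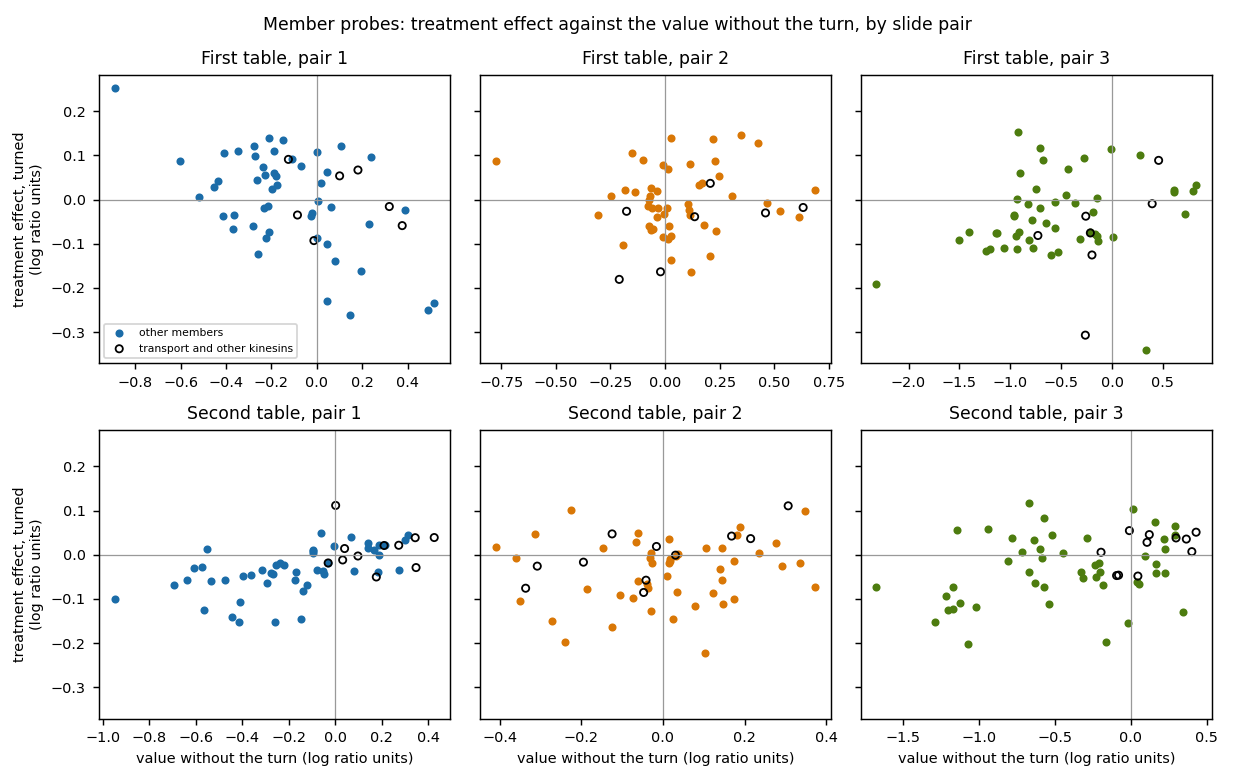
Treatment effect (y axis) against the value without the turn (x axis), both in log ratio units, for member probes in each slide pair; open circles are transport and other kinesins. The x axes are several times wider than the y axes, and pair 1 runs down in the first table and up in the second.

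Other genes of mitosis, from a list of 82 that the symbol rule did not take, were measured for 38 genes of the first table and 40 of the second. In limma 0 of their probes had an adjusted p under 0.05, and 1 first-table and 5 second-table genes had a probe with an unadjusted p under 0.05, beside 2.34% and 5.22% of all probes. These genes had 49 and 53 probes, so a gene with several could count through any of them, unlike a share of single probes. Of the 38 first-table genes, 23 had negative means, where 4129 of all 7680 probes did, and the median was -0.011. In all pairs 5 were negative and 3 positive, beside 11.2% and 11.4% of all probes. Of the 40 second-table genes, 32 had negative means, where 3966 of all 7680 probes did, and the median was -0.021. In all pairs 12 were negative and 1 positive, beside 14.7% and 9.84% of all probes. Examples of the 12 were Nuf2, a microtubule-binding kinetochore protein, at -0.065, -0.11 and -0.10 (-0.092 ± 0.023), Ttk, the Mps1 checkpoint kinase, at -0.046, -0.040 and -0.18 (-0.087 ± 0.077), and Pttg1, the separase inhibitor securin, at -0.066, -0.062 and -0.099 (-0.076 ± 0.020). Foxm1, a transcription factor of G2 genes, was at -0.056, -0.049 and -0.017 (-0.041 ± 0.021). The positive one was Mastl, the Greatwall kinase, at 0.032, 0.030 and 0.034 (0.032 ± 0.0018). In the first table Nek2, a centrosome kinase, was at -0.13, -0.23 and -0.025 (-0.13 ± 0.10). These examples were chosen after their values were seen.

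Markers of other tissues were measured for few genes, beside a median effect size over all probes of 0.035 (first table) and 0.023 (second table). Of 12 listed yolk sac endoderm genes, 4 were measured in the first table, all with negative means, from -0.059 to -0.020, and 1 in the second. Of 8 listed primitive red cell genes, 3 were measured in the second table, all with negative means, from -0.088 to -0.052, and 1 in the first, at -0.012. Of 9 listed trophoblast and decidua genes, 3 were measured in the first table, with means from 0.083 to 0.17, and 2 in the second, of opposite sign. Of 5 listed neural tube genes, 1 was measured, at 0.054 in the first table. Ratios hold no level of expression, so neither the presence of these tissues nor of dividing cells could be read from them, and their part in the members' values was not tested.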

How the data were processed

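The 2 deposited tables hold 1 log ratio per probe and array, as judged from the values, and the tables and labels name no base, numerator, background correction or normalization by the authors. Array medians ran from -0.305 to 1.12 and from 0.272 to 2.10, so each array was centred on its median. All values were present and all were used. The number of slide pairs limits the precision. The 2 arrays of a slide were averaged, the effect of a pair was the difference of its slides divided by 2, and limma 3.58.1 in R 4.3.3 (lmFit, eBayes) compared the mean of 3 pairs with 0, separately by table, with Benjamini-Hochberg adjustment over 7680 probes and a threshold of 0.05. The fit was also run on simulated noise with planted shifts. These were larger than every member mean here, so that run does not show what the fit can find at the sizes reported. Gene symbols came from the platform annotation and were updated by identifier; 2704 and 2470 probes had no symbol and 227 and 275 several. The test had been planned for log2 ratios and was kept, since limma's p-values are the same in any base. The member genes and all lists were chosen with earlier results of these data known. Every member gene is named with its mean. Pair values are given for genes of 1 sign in all pairs, for genes in both tables and for those chosen by full symbol. Slide values are given for the 3 lowest and 3 highest genes of 1 sign per table. Alternatives were other scalings, no turn, single orientations, single arrays, left-out pairs, a dye trend and no pairing.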

Additional observations from a re-analysis of the deposited data

Results flagged for a closer look

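Tpx2, in the second table with the treated RNA in channel 1, had 1 array far from the other 5. Its centred log ratio was 0.6536 on the first array of pair 2, while the others lay between 0.139 and 0.317. The gap to the nearest of them was 0.654 of the whole range, above the 95% limit for 6 arrays. In all, 32 such sets of 6 arrays were looked at, and chance alone marks about 1 set in 20.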

How the results depend on the processing

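Calls depended on the treatment of the swapped slides and of the array medians. Without the turn, 219 first-table probes passed (2 members), with treated RNA in channel 1 alone 174 (2 members), in channel 2 alone 668 (5 members), and with values as deposited 33 (1 member), where the second table had 1. Leaving out a pair gave 24 to 30 probes in the first table (0 to 1 members) and 0 to 58 in the second (0 members). The member median of the first table moved to -0.1533 without the turn, -0.1797 in channel 1, 0.1722 in channel 2 and -0.1405 as deposited, and that of the second to -0.1002, -0.1766, 0.0755 and -0.0740. As deposited, the medians of all probes moved too, to -0.1285 and -0.0543, so the members' distance from them was -0.012 and -0.020. Leaving out a pair gave medians of -0.030 to -0.00018 and of -0.022 to -0.015. The second-table median was -0.0404 without transport kinesins and Cenpj. Genes negative in all pairs numbered 16 in channel 1 and 33 as deposited in the first table, and 8 in channel 2 and 2 as deposited in the second. They numbered 13 to 20 and 19 to 24 when a pair was left out, with fewer pairs to hold a sign. In the deposited values, 58.7% and 3.46% of all probes were negative in all pairs. No such share is given here for single channels or left-out pairs, so those counts have no background. Quantile scaling, the dye trend and single arrays left 0 probes called, as did single arrays with a dye term and no replicate block, where the medians were -0.017 and -0.021. For the 12 genes with slide values, 122 of 144 alternative values kept sign and side of the threshold, and Mki67 passed it as deposited and without pair 2. This count does not measure stability. The genes were chosen for 1 sign in all pairs, so leaving out a pair could not turn a sign. The fit with no replicate block has the same means by construction. Signs turned without the turn for Mki67 (0.3365), Kif2c (0.2125), Aurkb (-0.1578), Cdca7 (-0.3575) and Kif1b (-0.0089), and in channel 1 for Mki67 (0.1268), Kif2c (0.1193), Aurkb (-0.0180) and Cdca7 (-0.2714). They turned in channel 2 for Cdc20 (0.1967), Cenpo (-0.0215), Racgap1 (0.5096), Top2a (0.5101), Bub1 (0.4174), Cenpu (-0.1574) and Tpx2 (-0.1871). As deposited they turned for Cenpo (-0.0235), Cdca7 (-0.0377) and Tpx2 (-0.0031), and with second arrays for Tpx2 (-0.0099). The cause was not tested. No source used here gives signal over background, so a dim probe cannot be told from one without change.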
